A study of Mus musculus with 15 samples.

Results

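Nuclear receptors are transcription factors that share a DNA-binding domain and a ligand-binding domain. The 10 members described here were chosen by name, with earlier results of these data known. They were the orphan receptors Nr4a1, Nr4a2 and Nr4a3, the REV-ERB receptors Nr1d1 and Nr1d2, the glucocorticoid receptor Nr3c1 and the vitamin D receptor Vdr. The others were Rxra, Rara and Ppard of the retinoid and fatty acid receptors. Each of the 10 had at least 1 probe, among 20145 genes with a named probe. Of the members, 7 were among the 14214 genes tested, which needed a probe that rose well above background on 3 or more arrays of a single group. Nr4a3, Nr1d1 and Vdr did not, and their signals are described without a test.

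The study asked how the AP-1 subunit JUNB shapes macrophage activation. It measured 15 single-colour Agilent arrays of cultured mouse macrophages, grown from bone marrow for a week in macrophage colony-stimulating factor. Wild type cells were C57BL/6. Knockout cells were Junb-fl/fl Lyz2-Cre+/+ on the same background, so floxed Junb is deleted where the myeloid gene Lyz2 drives Cre and both Lyz2 copies carry the Cre insertion. Cells were left untreated (mock-treated) or received 100 ng/ml lipopolysaccharide (LPS), the outer membrane glycolipid of Gram-negative bacteria, for 4 h. Wild type gave 4 untreated and 4 LPS arrays. Knockout gave 4 untreated arrays and 3 LPS arrays, which are replicates 2, 3 and 4. The labels call the replicates independent wells and give no number of mice, so the p-values here reflect variation among wells, which may be technical.

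The 2 slides split by genotype, with the knockout on 1 and the wild type on the other. Of the sex-linked genes read, Kdm5d on the Y chromosome did not separate the genotypes. It was well above background on all knockout arrays, 4 of 4 untreated wild type arrays and 1 of 4 LPS-treated ones. Its signals were 44.8 to 1184 (untreated) and 0.585 to 66.5 (LPS) in wild type cells. In the knockout they were 43.3 to 87.8 and 30.7 to 52.8. Xist, transcribed from the inactive X chromosome, was well above background on 8 of 8 wild type and 0 of 7 knockout arrays. The Y-linked genes Ddx3y and Eif2s3y were so on 7 of 7 knockout and 0 of 8 wild type arrays. Differences between the genotypes, in either condition and in their LPS responses, therefore cannot be told apart from sex or from Cre in Lyz2. Differences between genotypes within 1 condition also cannot be told apart from slide. Each LPS response lies within 1 slide. Junb had signals of 1291 to 9574 in wild type cells and was not well above background on any knockout array. The knockout was at least 75.1-fold below wild type without LPS, and the bound was 302-fold after it. Of 7 macrophage markers with a probe, 7 were well above background on most arrays of every group. In units of the array's 75th percentile they summed to 1246 to 1440 (untreated) and 1487 to 2322 (LPS) in wild type cells. In the knockout they summed to 458 to 1267 and 1240 to 1632. Among them, Lyz2 had signals of 345888 to 448164 in wild type cells and 869 to 3793 in the knockout. Of 7 neutrophil markers, 2 or 3 were well above background on most arrays of a group, and Mpo and Cxcr2 were on no array. The summed neutrophil marker level, in units of the array's 75th percentile, was 6.00 to 10.2 (untreated) and 43.1 to 58.0 (LPS) in wild type cells, against 5.24 to 6.07 and 13.9 to 16.6 in the knockout. Of 6 dendritic cell markers, 3 were well above background on most arrays of a group, and 4 in LPS-treated wild type cells. They summed to 101 to 320, with Dpp4 and Clec9a on no array. B cell, T and NK cell, erythroid and mast cell markers summed to at most 1.80. Of these sets, 1 to 3 markers each were well above background on most arrays of a group. Of 5 fibroblast and stroma markers, 4 were well above background on most arrays of every group, and Pdgfra was on no knockout array. They summed to 2.14 to 4.47 (untreated) and 3.09 to 6.63 (LPS) in wild type cells and to 2.70 to 4.26 and 4.01 to 7.66 in the knockout. The part of these cells in the results was not tested. In bulk RNA, fewer cells with a transcript and less of it per cell cannot be told apart. The 75th percentile of the signal was 482 to 1490, and 51.0% to 63.2% of spots were well above background. Untreated knockout replicate 3 stood apart, with a standard deviation of 0.64 around its group's means, and it touches the results for Ppard and Tef. Untreated wild type replicate 1 (0.54) and LPS-treated wild type replicate 4 (0.53) deviated next most, and the other 12 arrays gave 0.23 to 0.43.

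NR4A receptors have a ligand-binding pocket filled by side chains, so their activity is set mainly by how much of them a cell makes, and they are known as immediate early genes in activated macrophages. REV-ERB receptors bind heme and repress transcription as part of the circadian clock. The glucocorticoid receptor mediates the anti-inflammatory action of glucocorticoids, and VDR, RAR and PPAR bind DNA as partners of RXR and respond to vitamin D, retinoic acid and fatty acids.

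The regions before the start sites of the NR4A genes are printed because Nr4a1 and Nr4a2 were called in both LPS responses and in their difference, and the 3 genes share a sequence that the choice of members did not use. The core of the cyclic AMP response element (CRE), the sequence bound by CREB and ATF proteins, was searched as CGTCA on both strands. It lies in 20.8% of 32817 promoter windows, which run from 250 bases before to 50 after an annotated start site, and 0.232% of windows hold at least 4. The windows of Nr4a1, Nr4a2 and Nr4a3 each hold 4, all before the start site. The 250 bases before each start follow, 5′ to 3′ on the gene's strand, from RefSeq on build GRCm38.p6, with the matches in capitals.
Nr4a1, chr15:101266596-101266845, plus strand: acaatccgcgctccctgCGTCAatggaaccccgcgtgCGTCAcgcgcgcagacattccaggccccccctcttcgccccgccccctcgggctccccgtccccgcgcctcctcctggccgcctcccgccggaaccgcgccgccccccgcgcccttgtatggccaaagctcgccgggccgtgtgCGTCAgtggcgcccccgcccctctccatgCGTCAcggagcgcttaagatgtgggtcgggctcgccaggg
Nr4a2, chr2:57124004-57124253, minus strand: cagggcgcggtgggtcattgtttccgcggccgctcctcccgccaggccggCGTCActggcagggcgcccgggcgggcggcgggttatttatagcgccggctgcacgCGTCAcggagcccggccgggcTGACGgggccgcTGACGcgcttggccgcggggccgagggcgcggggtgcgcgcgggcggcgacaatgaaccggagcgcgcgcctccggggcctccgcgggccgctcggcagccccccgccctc
Nr4a3, chr4:48045055-48045304, plus strand: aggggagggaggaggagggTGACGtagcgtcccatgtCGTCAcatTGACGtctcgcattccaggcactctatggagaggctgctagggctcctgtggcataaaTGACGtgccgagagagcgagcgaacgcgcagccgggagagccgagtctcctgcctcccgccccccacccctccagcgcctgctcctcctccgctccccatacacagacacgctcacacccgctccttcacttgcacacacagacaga

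The overlapping full CRE, TGACGTCA, was not found in the 3 NR4A windows. Neither was the AP-1 heptamer TGANTCA, which lies in 7.81% of all windows and in none of the windows read for 9 members. Nr4a1 also holds 1 NF-kB site, present in 8.46% of windows, and Nr4a2 and Nr4a3 hold none. Of the other members read, Ppard held 1 CGTCA match, Rara held 1 in each of 2 of its 4 windows, and Nr1d1, Nr1d2, Vdr and Rxra held none. The Nr3c1 window was not used here. A match describes the letters in a window and is no evidence of binding.

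**Figure D1:**
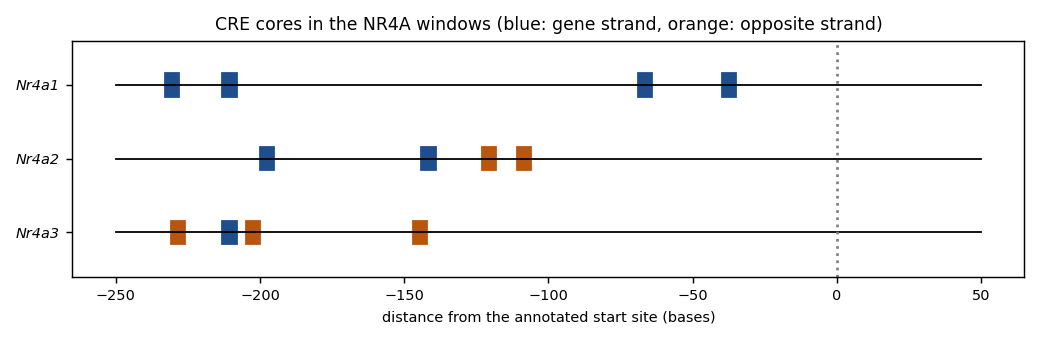
Positions of the CRE core in the windows of Nr4a1, Nr4a2 and Nr4a3; the x axis is the distance in bases from the annotated start site, and blue and orange blocks are matches on the gene's strand and the opposite strand. Each window holds 4 matches, from -233 to -40 in Nr4a1, -200 to -111 in Nr4a2 and -231 to -147 in Nr4a3.

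Levels below are log2 of the background-subtracted signal over the array's 75th percentile, and differences are log2 differences with their standard error (SE). Values come from the brightest kept probe of a gene, and levels of different probes are not comparable. In limma's fit across all genes, 4 of the 7 members tested changed with LPS in wild type cells at an adjusted p under 0.05, against 60.4% of all genes tested. Of these, 3 rose (34.9% of all genes) and 1 fell (25.5%). In knockout cells 5 changed (59.9% of all genes), 3 upwards (32.4%) and 2 downwards (27.4%). These shares are close to the background of an array on which most genes moved. The responses differed between genotypes for 3 of 7 (10.1% of all genes), each with the lower value in knockout cells (7.15%, against 2.90% with the higher value). In the untreated state 4 of 7 were higher in knockout than in wild type cells (17.7% of all genes in either direction, 11.9% higher). With LPS 2 of 7 were higher in knockout cells (30.7% in either direction, 13.6% higher). Since the members were chosen with earlier results of these data known, the counts cannot show whether the set stands out from all genes.

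**Figure D2:**
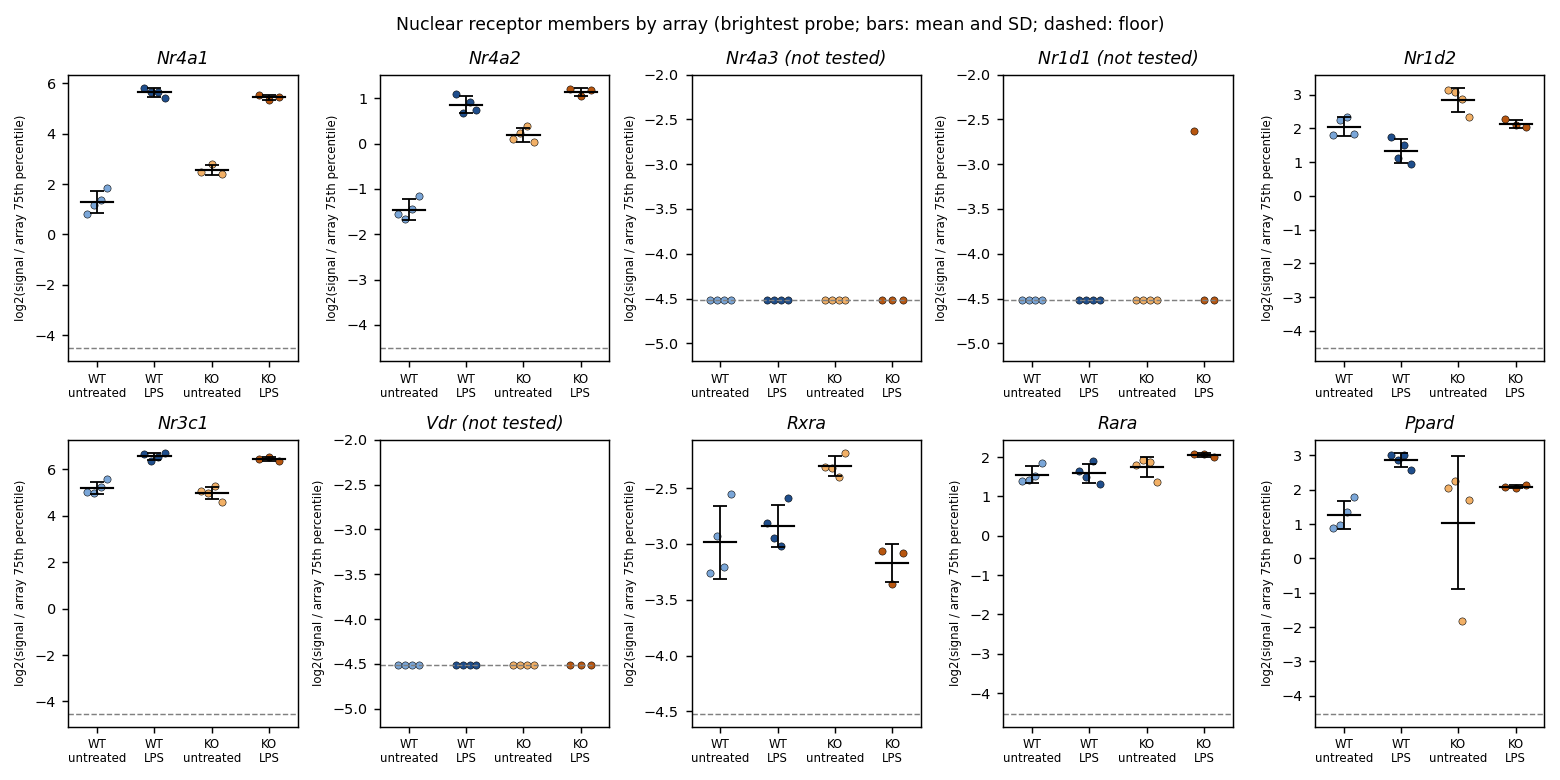
Log2 level of each member on every array, in 4 groups (WT, wild type; KO, Junb knockout); points are arrays, bars are the mean and standard deviation, and the dashed line is the floor at -4.52. Nr4a1 and Nr4a2 rise with LPS in both genotypes and start higher in untreated knockout cells, and 1 untreated knockout array lies far below the rest for Ppard.

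Nr4a1 (NUR77), which restrains NF-kB signalling in macrophages, spans chr15:101253902-101274795 (GRCm38.p6). It rose 20.2-fold with LPS in wild type cells and 7.33-fold in knockout cells. The wild type levels were 0.83, 1.16, 1.37 and 1.86 untreated and 5.83, 5.64, 5.67 and 5.42 with LPS in replicates 1 to 4. Knockout levels were 2.49, 2.80 and 2.41 untreated in replicates 1, 2 and 4, and 5.53, 5.32 and 5.47 with LPS. The spot of untreated knockout replicate 3 was marked as irregular and left out; its level would have been 2.88. All untreated knockout arrays lay above all untreated wild type arrays, and with LPS the genotypes overlapped. The wild type response was 4.34 ± 0.19 (adjusted p = 4.2e-10, limma, n = 4 and 4) and the knockout response 2.87 ± 0.22 (adjusted p = 1.1e-07, n = 3 and 3). The responses differed by -1.46 ± 0.29 (adjusted p = 0.00621 in limma). In the untreated state the knockout was higher by 1.26 ± 0.20 (limma adjusted p = 0.000851). With LPS the genotypes differed by -0.20 ± 0.20 (limma adjusted p = 0.498, 95% interval -0.64 to 0.24). On the deposited value table the difference of the responses was -1.48 and missed the threshold (limma adjusted p = 0.0605); over 26 alternatives it ran from -1.65 to -1.30.

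Nr4a2 (NURR1), an NR4A receptor best known from dopaminergic neurons, spans chr2:57106830-57124003. Its response had the same form as that of Nr4a1 and was smaller, 4.98-fold in wild type and 1.95-fold in knockout cells. The untreated wild type levels were -1.56, -1.67, -1.44 and -1.14, and the LPS levels were 1.10, 0.67, 0.93 and 0.75. Untreated knockout cells had levels of 0.10, 0.24, 0.38 and 0.03, and LPS-treated knockout cells 1.22, 1.05 and 1.19. Every untreated knockout array exceeded every untreated wild type array and stayed below every LPS array of either genotype. LPS raised the gene by 2.32 ± 0.13 in wild type cells (limma adjusted p = 2.6e-09) and by 0.96 ± 0.14 in knockout cells (adjusted p = 5.1e-05), a difference of -1.36 ± 0.20 (adjusted p = 0.000621). The knockout was higher by 1.64 ± 0.13 untreated (limma adjusted p = 1.7e-06) and by 0.29 ± 0.14 with LPS, which missed the threshold (adjusted p = 0.15). A second, dimmer probe gave 2.56 in wild type, 0.97 in knockout and a difference of -1.58 ± 0.36 (limma adjusted p = 0.0195). Its untreated knockout levels were -1.33, -1.54, -0.31 and -1.29, again all above the untreated wild type range of -2.66 to -2.39. With LPS the knockout levels on this probe were 0.09, -0.65 and 0.12. Unlike on the brighter probe, untreated and LPS-treated knockout arrays therefore overlapped.

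Nr4a3 (NOR1), the remaining NR4A receptor, spans chr4:48045078-48086447 and was not well above background on any array. Its signal, averaged over the kept ones of 10 spots per array, lay between -3.45 and 3.82 on the 15 arrays. Of 150 spots, 7 were marked as irregular and left out; 1 of these, in LPS-treated knockout replicate 2, was well above background with a signal of 131, and the other 6 gave at most 8.33. Its 4 CRE cores therefore stand beside no expression value.

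The LPS responses of other immediate early genes, which are induced without new protein synthesis, were counted beside them. All 18 were tested, of which 14 rose and 2 fell in wild type cells, and 12 rose and 1 fell in knockout cells, with medians of 2.20 and 1.91 against 0.14 and 0.19 over all genes. Dusp2, a phosphatase of MAP kinases, rose by 5.80 ± 0.15 in wild type cells and by 5.59 ± 0.19 in the knockout, and Ier3, a stress response gene, by 3.93 ± 0.16 and 3.47 ± 0.18. The knockout LPS value of Dusp2 rests on 2 arrays, and its wild type call was lost on the deposited value table (limma adjusted p = 0.0875). The response was larger in knockout cells for the zinc finger factor Egr2 (1.58 in wild type and 4.46 in knockout, difference 2.88 ± 0.36) and less negative for Klf2 (-1.06 and 0.02, difference 1.08 ± 0.23). It was smaller in knockout cells for the repressor Atf3 (1.39 and -0.01, difference -1.41 ± 0.18), each with a limma adjusted p of the difference at or below 0.00869. Junb itself rose by 2.54 in wild type and lay at the floor in knockout cells, while Fos fell by 0.91 in wild type cells and fell by 1.28 in the knockout. Of the 18, the responses of 3 were higher and of 4 were lower in knockout cells. Among those 4 is Junb, whose knockout value is set by the floor, so its difference repeats the wild type rise. With the replicate block the counts were 2 higher and 3 lower, and on the deposited value table, which lists 14 of the genes, 0 and 1 (limma; 1 and 4 at an unadjusted p under 0.05). The difference for Egr2 was lost there (limma adjusted p = 0.354).

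**Figure D3:**
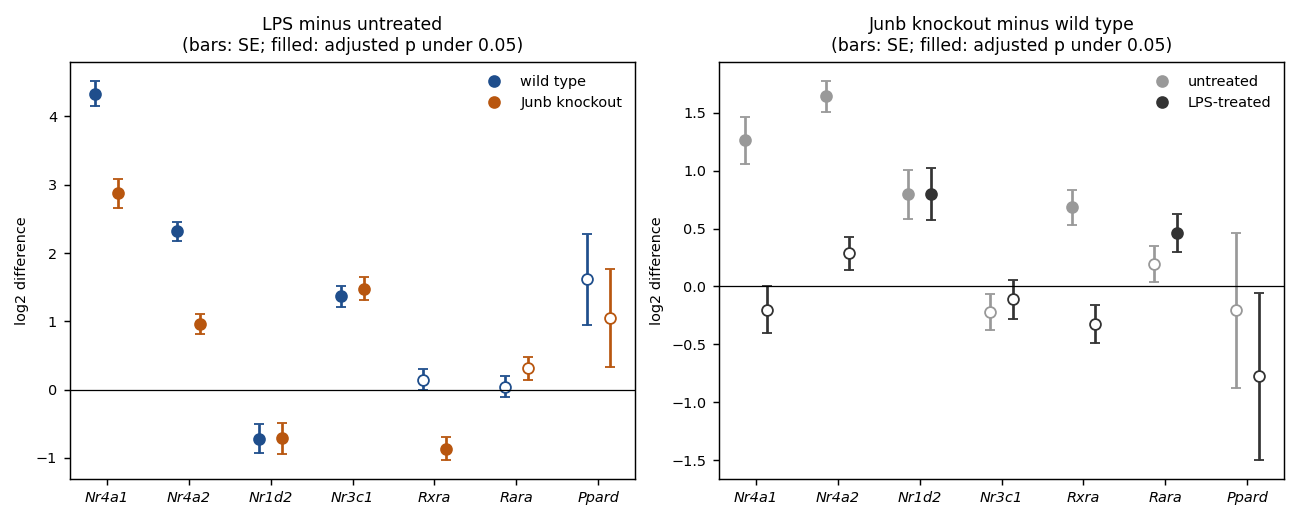
Log2 differences of the 7 members tested, with LPS in each genotype (left) and between genotypes in each condition (right); points are limma estimates, bars are SE and filled points have an adjusted p under 0.05. Nr4a1 and Nr4a2 respond less in knockout cells (2.87 and 0.96 against 4.34 and 2.32), Nr1d2 gave -0.71 and -0.72, and the wide bars of Ppard come from 1 array.

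Nr1d2 (REV-ERBβ), a heme-binding repressor of the clock and of macrophage enhancers, spans chr14:18204056-18239106. It fell with LPS in both genotypes by nearly the same amount and was higher in knockout than in wild type cells. Wild type levels were 1.82, 2.25, 2.34 and 1.82 untreated and 1.75, 1.13, 1.52 and 0.96 with LPS. The knockout levels were 3.13, 3.07, 2.86 and 2.34 untreated and 2.27, 2.09 and 2.04 with LPS. Within each genotype no LPS array reached an untreated array, and with LPS all knockout arrays exceeded all wild type arrays. The fall was -0.72 ± 0.21 in wild type (limma adjusted p = 0.00841) and -0.71 ± 0.22 in knockout cells (adjusted p = 0.0137). The difference between these responses was 0.00 ± 0.31, with a 95% interval of -0.66 to 0.66. The knockout was higher by 0.79 ± 0.21 untreated (limma adjusted p = 0.0176) and by 0.80 ± 0.22 with LPS (adjusted p = 0.0162). The untreated call was lost without knockout replicate 1 or replicate 2 (limma adjusted p = 0.0619 and 0.0534), without the 3 most deviating arrays (adjusted p = 0.0582) and on the 2 untreated groups alone (adjusted p = 0.052), and the call with LPS without knockout LPS replicate 2 (adjusted p = 0.0633).

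Nr1d1 (REV-ERBα), its close relative on chr11:98767932-98775377, was near background. It was well above background on 1 of 4 untreated and 2 of 4 LPS arrays of wild type cells, and on 0 of 4 untreated and 1 of 3 LPS arrays of knockout cells. The single high signal was 120 in LPS-treated knockout replicate 2, and the other 14 arrays gave 7.73 to 45.8. No fold is given.

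Of 20 clock genes around the REV-ERB receptors, 17 were tested, and 9 rose and 4 fell in wild type as in knockout cells. Nfil3, which represses D-box genes and is itself repressed by REV-ERB, rose by 4.22 ± 0.12 in wild type and by 3.11 ± 0.13 in knockout cells (difference -1.11 ± 0.17, limma adjusted p = 0.00105). Ciart, a repressor of CLOCK and BMAL1, rose by 2.77 ± 0.24 and 3.18 ± 0.26. Dbp, a D-box activator, fell by 3.18 in wild type cells and fell by 3.39 in the knockout, while its relative Tef fell by 3.53 ± 0.81 in wild type cells and in knockout cells gave -1.74 ± 0.88, short of the threshold (limma adjusted p = 0.104). That Tef value rested on untreated knockout replicate 3, without which the gene fell by 2.94 ± 0.14 in knockout cells (limma adjusted p = 1.1e-09). The period gene Per2 fell by 0.73 in knockout cells and fell at least 3.07-fold in wild type cells, in which no LPS array was well above background (difference of the fitted responses 0.89 ± 0.25, limma adjusted p = 0.0342). The call for the difference of Per2 was lost in 13 of 25 alternatives, 7 of which left out 1 array.

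Nr3c1, the glucocorticoid receptor, rose with LPS in both genotypes on both of its probes, 2.58-fold in wild type and 2.78-fold in knockout cells on the brighter one. That probe read 5.01, 4.99, 5.23 and 5.57 in untreated and 6.68, 6.38, 6.53 and 6.69 in LPS-treated wild type cells. In knockout cells it read 5.07, 4.98, 5.27 and 4.61 untreated and 6.47, 6.55 and 6.36 with LPS. LPS arrays lay above untreated arrays throughout, and the genotypes overlapped in both conditions. The rise was 1.37 ± 0.16 in wild type (limma adjusted p = 3.2e-06) and 1.48 ± 0.17 in knockout cells (adjusted p = 3.7e-06). The responses differed by 0.11 ± 0.23 (limma adjusted p = 0.797, 95% interval -0.38 to 0.60).

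The dimmer Nr3c1 probe gave another picture of the genotypes. It read -1.24, -0.65, -0.80 and -0.96 in untreated and 2.38, 2.33, 2.49 and 2.22 in LPS-treated wild type cells. Knockout values were -0.18, -0.29, -0.24 and -0.71 untreated and 1.98, 1.66 and 2.17 with LPS. Here the LPS arrays of the genotypes did not overlap, and wild type was the higher. The rises were 3.27 ± 0.16 and 2.29 ± 0.17, larger than on the brighter probe. Their difference was -0.97 ± 0.23 (limma adjusted p = 0.0248), and untreated knockout cells were higher by 0.56 ± 0.16 (adjusted p = 0.0326), so the 2 probes disagree on whether the genotypes differ. Where each probe lies in the transcript was not analysed here.

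Glucocorticoid receptor targets, chaperones and ligand enzymes went in both directions. Of 15 genes tested, 8 rose and 3 fell in wild type cells, and 8 rose and 5 fell in knockout cells. The list's medians were 0.81 and 0.87, and -0.18 and -0.16 over the 11 genes in the deposited value table. Among textbook targets of the receptor, the metallothionein Mt2 rose by 4.30 ± 0.17 in wild type cells and by 3.91 ± 0.18 in the knockout, and the MAP kinase phosphatase Dusp1 by 3.43 ± 0.14 and 2.68 ± 0.16 (difference -0.75 ± 0.21, limma adjusted p = 0.0426). The call for the difference of Dusp1 was lost in 16 of 25 alternatives, 11 of which left out 1 array. Tsc22d3 (GILZ), an anti-inflammatory mediator, fell by 2.12 in wild type cells and fell by 2.11 in the knockout, and the kinase gene Sgk1 fell by 1.47 in the former and fell by 1.59 in the latter. Klf9 changed by 0.07 ± 0.14 in wild type cells and fell by 1.03 in knockout cells (difference -1.10 ± 0.21, limma adjusted p = 0.00475).

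**Figure D4:**
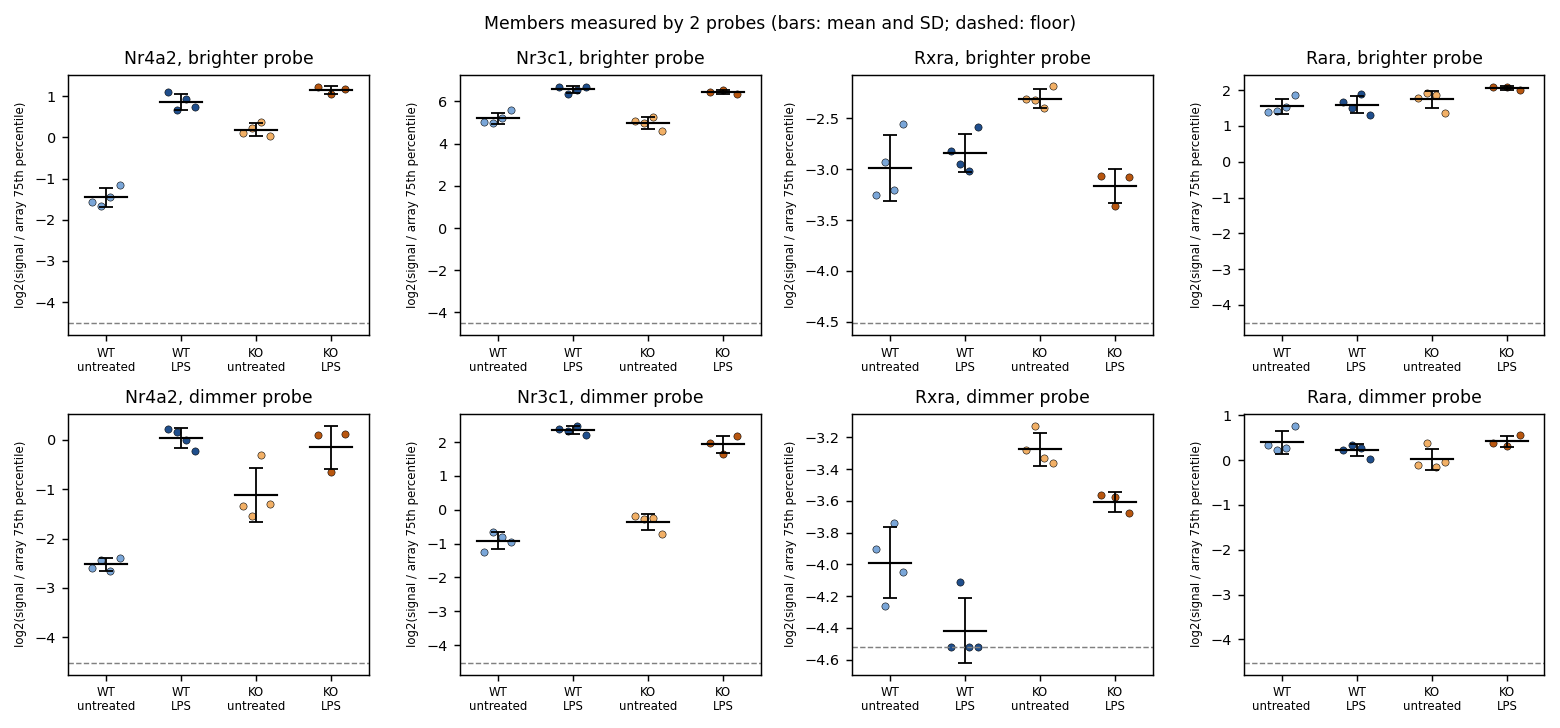
Log2 levels on every array for the 4 members measured by a brighter (top) and a dimmer (bottom) kept probe; points are arrays, bars are the mean and standard deviation and the dashed line is the floor at -4.52. On both Nr4a2 probes untreated knockout cells lie above untreated wild type cells, while the Nr3c1, Rxra and Rara probes differ in how knockout compares with wild type.

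Rxra, the common partner of the vitamin D, retinoic acid and fatty acid receptors, spans chr2:27676445-27763319 and was dim on both probes. Levels on the brighter probe were -3.26, -2.93, -3.20 and -2.55 in untreated and -2.82, -2.95, -3.01 and -2.58 in LPS-treated wild type cells. In knockout cells they were -2.31, -2.32, -2.40 and -2.18 untreated and -3.06, -3.36 and -3.08 with LPS. Untreated knockout arrays were the highest of all groups, with no overlap, and wild type levels overlapped between conditions. The wild type response was 0.15 ± 0.15 (limma adjusted p = 0.438) and the knockout response -0.86 ± 0.16 (adjusted p = 0.000436). The difference was -1.01 ± 0.22 (limma adjusted p = 0.0114), and it lost its call on the deposited value table and with normexp background correction (adjusted p = 0.0986 and 0.0655). Untreated knockout cells were higher by 0.68 ± 0.15 (limma adjusted p = 0.00692).

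On the dimmer Rxra probe untreated knockout cells were again higher, by 0.71 ± 0.13 (limma adjusted p = 0.0023), so this is the comparison in which both probes passed. The LPS responses did not match: -0.43 ± 0.13 in wild type (limma adjusted p = 0.0123), -0.33 ± 0.14 in knockout cells (adjusted p = 0.0624) and a difference of 0.10 ± 0.19 (adjusted p = 0.8). With LPS this probe put knockout above wild type by 0.81 ± 0.14 (limma adjusted p = 0.000973), whereas the brighter probe gave -0.33 ± 0.16 (adjusted p = 0.153). The dimmer probe was well above background on 2 of 4 LPS arrays of wild type cells, where 3 values lay at the floor.

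Rara, the retinoic acid receptor whose gene is rearranged in promyelocytic leukaemia, spans chr11:98927800-98974942 and did not pass the test for an LPS response in either genotype. Its brighter probe read 1.39, 1.42, 1.52 and 1.86 in untreated and 1.66, 1.50, 1.89 and 1.32 in LPS-treated wild type cells. The knockout read 1.79, 1.92, 1.87 and 1.38 untreated and 2.08, 2.08 and 1.99 with LPS. Wild type arrays overlapped between conditions, and LPS-treated knockout arrays were above all others. The responses were 0.04 ± 0.15 in wild type (95% interval -0.29 to 0.37) and 0.31 ± 0.16 in knockout cells (-0.04 to 0.67). With LPS the knockout was higher by 0.46 ± 0.16 (limma adjusted p = 0.0476), a call that was lost in 18 of 28 alternatives, among them the fit with the replicate block (0.46 ± 0.18, adjusted p = 0.081). The dimmer probe gave 0.20 ± 0.16 for that comparison (limma adjusted p = 0.412). That value comes from a fit of all kept probes, in which the brighter probe also missed the threshold (limma adjusted p = 0.0581).

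Of 16 genes of retinoid metabolism, transport and RAR response, 10 were tested; 4 rose and 2 fell in wild type cells, and 2 rose and 3 fell in knockout cells. Tgm2, the tissue transglutaminase and a classical retinoic acid target, rose by 1.17 ± 0.10 in wild type and by 0.30 ± 0.11 in knockout cells (difference -0.86 ± 0.15, limma adjusted p = 0.00268). The call for the knockout rise was lost in 8 of 26 alternatives, of which 4 left out 1 array and 2 reversed its sign. Another Tgm2 probe gave 0.25 in knockout cells (limma adjusted p = 0.252) and a difference of -1.14 (adjusted p = 0.0125). Crabp2, which carries retinoic acid to the receptor, rose by 0.88 ± 0.20 in wild type cells and gave 0.41 ± 0.22 in knockout cells (limma adjusted p = 0.121). Dhrs3, a retinaldehyde reductase, fell by 1.74 in wild type cells and fell by 1.49 in the knockout. For the retinol saturase Retsat the responses were -0.52 and -1.06, both past the threshold. The wild type call was lost in 2 of 27 alternatives for Crabp2 and in 4 of 27 for Retsat.

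Ppard, a fatty acid receptor that many tissues express, spans chr17:28232754-28301469, and its result rested on 1 array. Levels in wild type cells were 0.88, 0.98, 1.36 and 1.78 untreated and 3.01, 2.85, 3.02 and 2.58 with LPS. In knockout cells they were 2.04, 2.26, -1.84 and 1.71 untreated and 2.07, 2.06 and 2.14 with LPS. Wild type LPS arrays lay above all other arrays, and untreated knockout replicate 3 lay far below the rest of its group. With all arrays, the LPS response was 1.62 ± 0.67 in wild type (limma adjusted p = 0.0503) and 1.05 ± 0.72 in knockout cells (adjusted p = 0.225), and the difference was -0.57 ± 0.98 (adjusted p = 0.749). The wild type response passed the threshold in 8 of 26 alternatives.

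Without untreated knockout replicate 3, Ppard rose by 1.62 ± 0.19 in wild type cells (limma adjusted p = 6.5e-06), while the knockout response was 0.09 (adjusted p = 0.756). The difference became -1.53 ± 0.29 (limma adjusted p = 0.00578). Untreated knockout cells were then higher than wild type by 0.75 ± 0.21 (limma adjusted p = 0.0273), where all arrays gave -0.21 ± 0.67. With LPS the knockout was lower by -0.78 ± 0.21 (limma adjusted p = 0.0121). This is the same array that stood apart over all genes, and whether its value reflects the well or the hybridisation was not tested.

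Among 16 PPAR target genes, mostly of lipid storage and fatty acid oxidation, 14 were tested; 2 rose and 2 fell in wild type cells, and 1 rose and 7 fell in knockout cells. After quantile normalisation the counts were 1 up and 11 down in wild type and 0 up (also at an unadjusted p under 0.05) and 11 down in knockout cells. Angptl4, which inhibits lipoprotein lipase and is a strong PPARδ target, fell by 4.65 ± 0.12 in wild type cells and fell by 5.47 ± 0.13 in the knockout (difference -0.82 ± 0.18, limma adjusted p = 0.00869). Cpt1a, which brings fatty acids into mitochondria, changed by -0.01 ± 0.13 in wild type cells and fell by 0.99 in knockout cells (difference -0.98 ± 0.19, limma adjusted p = 0.00495). Another Cpt1a probe gave -0.31 in wild type and -0.87 in knockout cells, and the call for the difference was lost on it (-0.55, limma adjusted p = 0.53). Fabp4, a fatty acid carrier, rose by 0.99 and 0.45, and Acadl, an acyl-CoA dehydrogenase, rose by 0.51 in wild type cells. The call for the knockout rise of Fabp4 was lost in 3 of 26 alternatives, of which 2 reversed its sign. Its wild type call was lost with normexp background correction (limma adjusted p = 0.367), and that of Acadl after quantile normalisation (limma adjusted p = 0.174).

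Vdr, the vitamin D receptor on chr15:97854427-97908296, was near background in these cells. Its signals in wild type cells were 46.2, 41.9, 36.3 and 28.1 untreated, of which the first 2 were well above background, and 13.4, 4.05, 22.6 and 4.83 with LPS, of which none was. Knockout signals were 4.97, 24.6, 5.26 and 9.51 untreated and 21.7, 14.4 and 9.90 with LPS, again with none well above background. These signals are not scaled for the brightness of the array, all scaled levels lay at or next to the floor, and no fold or test is given. Of 8 genes of vitamin D activation, breakdown and transport, 5 were tested; 1 rose and 1 fell in wild type cells, and 2 rose and 2 fell in knockout cells. Cyp27b1, the enzyme that makes the active hormone, rose by 0.82 ± 0.25 and 0.84 ± 0.27, and after quantile normalisation 0 of the 5 rose in wild type cells (limma; 1 at an unadjusted p under 0.05). Dhcr7, which consumes the vitamin D precursor, fell by 2.62 in wild type cells and at least 7.22-fold in knockout cells. In the knockout its probe was not well above background on any LPS array (signals of 18.7 to 26.9), and the untreated mean rests on 3 arrays.

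Of 38 other receptors, 24 were tested; 5 rose and 5 fell in wild type cells, and 6 rose and 6 fell in knockout cells. On the deposited value table, which lists 18 of them, 0 rose and 5 fell in wild type cells, and 1 rose and 5 fell in knockout cells (limma; 1 rose in wild type cells at an unadjusted p under 0.05). The wild type median was 0.01, with -0.12 after quantile normalisation and -0.53 on the deposited table. The rise of Ppara was lost on the deposited table (adjusted p = 0.0819), and that of Esrra with normexp background correction (adjusted p = 0.0712). The orphan receptor Esrra rose by 1.08 ± 0.14 in wild type cells and by 1.45 ± 0.15 in the knockout, Ppara by 1.19 ± 0.29 in wild type cells, and Nr2f6 fell, with responses of -1.42 and -0.85. Pparg, the lipid-handling relative of Ppard, fell by 1.25 ± 0.13 in wild type cells and fell by 2.21 ± 0.14 in the knockout (difference -0.96 ± 0.19, limma adjusted p = 0.00486). Rarg, a relative of Rara, gave 0.09 ± 0.16 in wild type and rose by 1.32 ± 0.17 in knockout cells (difference 1.23 ± 0.23, limma adjusted p = 0.00393), lost on the deposited value table (adjusted p = 0.32).

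Of 20 corepressors and coactivators, 19 were tested, and 6 rose and 6 fell in each genotype. The ligand-dependent corepressor Lcor rose by 1.74 ± 0.23 in wild type cells and by 2.12 ± 0.24 in the knockout. The coactivator Ncoa2 fell, with responses of -1.39 and -1.25. Ppargc1b (PGC-1β), a coactivator of oxidative metabolism, fell by 1.39 ± 0.13 in wild type cells and rose by 1.01 ± 0.14 in knockout cells (difference 2.39 ± 0.19, limma adjusted p = 4e-06). It was well above background on 1 of 4 LPS arrays of wild type cells, so the size of that fall depends on the floor. Ncoa7 rose by 3.06 and 1.16 (difference -1.90 ± 0.31, limma adjusted p = 0.00154), and another probe gave a difference of -0.43 (adjusted p = 0.626). Ncoa1 gave -0.18 ± 0.18 in wild type cells and fell by 1.12 in the knockout (difference -0.94 ± 0.26, limma adjusted p = 0.0368), a call that was lost in 15 of 26 alternatives. Its other kept probes gave -0.41 and -0.76 in wild type cells (limma adjusted p = 0.0132 and 0.00174). Their differences were -0.84 and -0.86 (limma adjusted p = 0.0158 and 0.0615), so the probes disagree on a wild type fall.

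**Figure D5:**
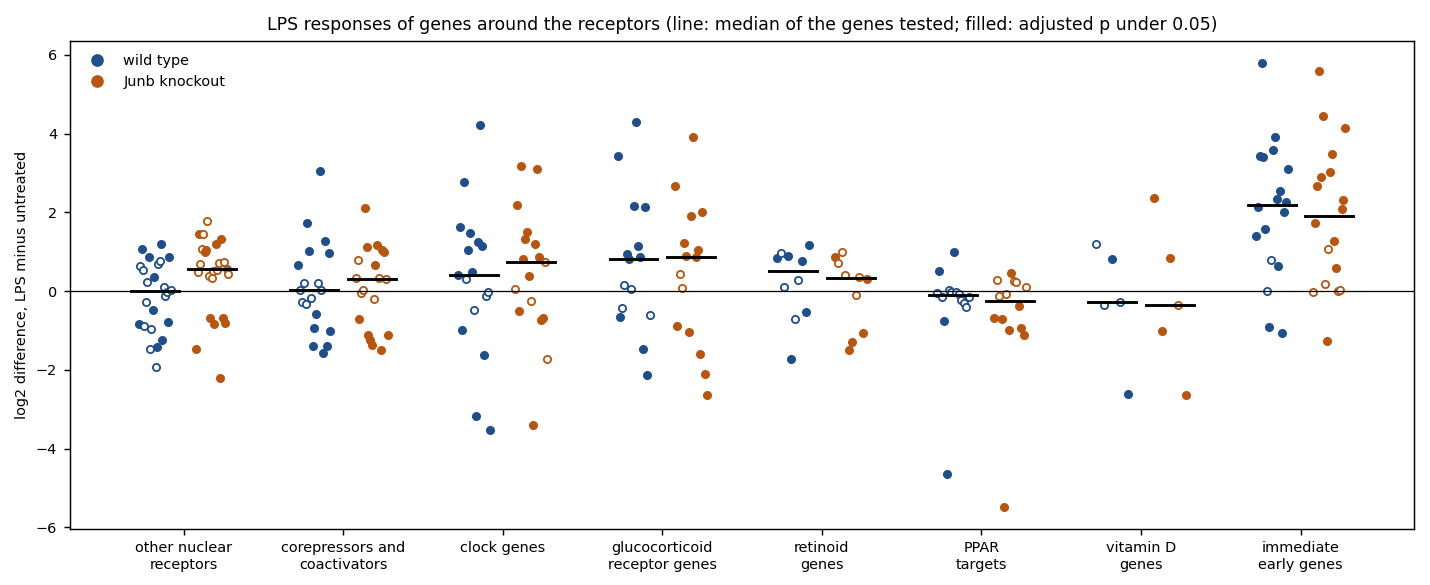
Log2 LPS responses of the tested genes of 8 lists around the receptors, in wild type (blue) and Junb knockout (orange) cells; points are genes, filled where the limma adjusted p is under 0.05, and lines are medians. Immediate early genes lie highest, with medians of 2.20 and 1.91, and Angptl4 among the PPAR targets is the lowest point, at -4.65 and -5.47.

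As a description of pattern, the genes whose log2 levels followed each member most closely over the arrays were listed by Pearson's r. The arrays share the LPS and genotype groups, so any gene with similar group means scores high. For Nr4a1 these were Marchf1, a membrane-bound ubiquitin ligase (r = 0.997 over 14 arrays), Hmgn3 and Smox, and for Nr4a2 they were Olfr213 (r = 0.985 over 15 arrays), Rab33a and F11r. Nr3c1 was followed most closely by Rbbp8, Asns and the NF-kB subunit gene Rela (r = 0.985 to 0.986), and Nr1d2 by Mbtd1, Xlr3b and the lipoprotein receptor gene Scarb1 (r = 0.95 to 0.96). Lower values were found for Rxra, with Egfl7, Cfap126 and Tafa3 (r = 0.882 to 0.887), and for Rara, with Rbm14, Sbno1 and Pdcd7 (r = 0.926 to 0.936). Ppard was followed by Cab39l, Elmod2 and Tbc1d13 (r = 0.962 to 0.966), values that include the array that stood apart.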

How the data were processed

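RNA was amplified, labelled with Cy3 and hybridised to Agilent mouse arrays, per the labels' protocols. The scanner files were made with Agilent Feature Extraction 10.7.3.1 on a probe design for mm9, per the file headers. Their processed signal is a deposited linear intensity from which the software had subtracted background. The deposited table of values holds log2 values whose scale, centring and method are not stated; each of its 15 columns ranked best with its own array's median signal (lowest Spearman correlation 0.968), its medians were 6.25 to 6.27, and it served as an alternative. No other series' columns were used.

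Marked spots (4827) were set to missing. Signals were divided by the array's 75th percentile, raised to a common floor (-4.52 on the log2 scale) and log2-transformed. Names came from RefSeq accessions, for 26582 of 55681 probes. A probe was kept if well above background on 3 arrays of 1 group, and the brightest kept probe stood for a gene. The means of the 4 groups over 15 arrays were fitted with limma 3.58.1 in R 4.3.3 (files read by version 1.17.8 of data.table). In the main fit p-values were Benjamini-Hochberg adjusted over 14214 genes at 0.05. Values given for a dimmer or another probe of a gene come from a separate fit of all 32534 kept probes. Their adjustment ran over those probes, so their adjusted p-values are not on the same footing as those of the main fit. The fit was tested on simulated data. A fold given as "at least" compares the brighter group with the dimmer one, whose signals below the background limit were raised to it. For Per2 no signal was raised, so its fold is the measured one. The members and lists were chosen with earlier results of these data known. From each list, the genes named are the 2 with the largest rise and the 2 with the largest fall among those called in the wild type response and in the difference; a gene in 2 lists counts in both, and all 10 members and 3 most similar genes per member are named. Results for 2 genes that this rule picked are not reported here. The labels do not say that replicate numbers pair the wells. Same-numbered correlations of deviations ran from -0.53 to 0.56 within wild type, from -0.00 to 0.33 within knockout cells and from -0.39 to 0.53 across genotypes, where 8 of 14 exceeded 0.1. All 3 same-numbered pairs exceeded 0.1 only between the LPS groups (0.45, 0.24 and 0.13). For that comparison the replicate block is therefore given, but only for Rara and for the count of members. Normexp correction used the median spot signal with an offset of 50. Alternatives were quantile normalisation, normexp, the deposited table, filters, the floor, probe choice, array weights, the groups of a contrast alone, a replicate block, and each array left out. The number of arrays limits the precision.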

Additional observations from a re-analysis of the deposited data

Results flagged for a closer look

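One member had an array far from the rest of its group: Ppard, with a log2 level of -1.84 in untreated knockout replicate 3 against 1.71 to 2.26 on the other 3 arrays. Of 127 groups of 4 arrays looked at over members and named list genes, 12 had such an array, where chance gives about 1 in 20. Among the list genes, the clock gene Tef stood apart on the same array (-1.14 against 3.61 to 3.73). In untreated wild type cells the arrays that stood apart were replicate 4 for Nr2f6 (2.05) and Dbp (1.91), and replicate 1 for Lcor (-2.22), Fabp4 (3.96) and Fos (4.51). With LPS in wild type cells they were replicate 4 for Pparg (-0.078), replicate 3 for Ppargc1b (-4.32) and replicate 2 for Retsat (0.71) and Junb (3.71). Ppargc1b also stood apart on untreated knockout replicate 2, where it lay at the floor (-4.52). None of these arrays was left out of the values above.

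The LPS responses of 3 members differed between genotypes by limma's test of the difference, all lower in knockout cells: Nr4a1 (-1.46), Nr4a2 (-1.36) and Rxra (-1.01, on the brighter probe). So did those of 16 named list genes, of which 10 kept the call under every alternative run, although Ncoa7 missed it on another probe. The knockout response had the lower value for Junb (-2.54, with the knockout at the floor in both conditions), Ncoa7 (-1.90), Atf3 (-1.41), Nfil3 (-1.11), Klf9 (-1.10), Cpt1a (-0.98), Pparg (-0.96), Ncoa1 (-0.94), Tgm2 (-0.86), Angptl4 (-0.82) and Dusp1 (-0.75). It had the higher value for Egr2 (2.88), Ppargc1b (2.39), Rarg (1.23), Klf2 (1.08) and Per2 (0.89). The call was lost in some alternative for Per2, Dusp1, Ncoa1, Cpt1a, Egr2 and Rarg. In the wild type LPS response 33 named list genes were called, of which 24 kept the call under every alternative and 9 lost it in some.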

How the results depend on the processing

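Over all alternatives run, the LPS responses of Nr4a1, Nr4a2, Nr3c1 and Nr1d2 in both genotypes and the higher untreated knockout levels of Nr4a1, Nr4a2 and Rxra kept their direction and their call. The difference of the responses passed for 1 of 6 members on the deposited value table, which lists no Ppard and only the brighter Rara probe. Over all genes it passed there with a higher value for 117 and a lower value for 451 of 12486. In the main fit these counts were 412 and 1017 of 14214, so fewer calls on that table are not particular to the members. The number of members that differed with LPS was 1 on the deposited value table, with marked spots kept (an alternative added after seeing the data), with the mean of all probes, without a filter on dim probes and with the replicate block, under which no other count of members moved by over 1.5 times. Leaving out 1 array gave 4 to 5 members for the wild type response, 5 for the knockout response, 3 to 4 for the difference, 3 to 5 for untreated cells and 0 to 2 with LPS, the 0 without knockout LPS replicate 2. The dimmer probe, also added after seeing the data, reversed Nr3c1 in the difference (-0.97) and in untreated cells (0.56), and Rxra in the wild type response (-0.43), the difference (0.10) and with LPS (0.81). Ppard in untreated cells reversed without knockout replicate 3 (0.75, the highest of a leave-one-out range that began at -0.61) and without the 3 most deviating arrays (0.63). The causes were not tested. Quantile normalisation moved the median of all genes from 0.14 to -0.12 in wild type and from 0.19 to -0.07 in knockout cells, and the share of calls that were higher from 57.8% to 41.9% and from 54.2% to 37.8%. The difference of responses was not fitted on the groups of a contrast alone, since it needs all 4. Dim probes (Rxra, Nr1d1, Vdr, Nr4a3) are limited by signal over background.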
